A study of Rattus norvegicus with 12 samples.

Results

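The proteasome genes of the rat uterus were followed through treatment with estradiol and with an aryl hydrocarbon receptor ligand. A gene was taken when its symbol began with Psma, Psmb, Psmc, Psmd, Psme, Psmf or Psmg and it had a probe set naming that gene alone. This gave 47 of the 14506 genes on the arrays: the 5 members of the immune set (Psmb8, Psmb9, Psmb10, Psme1 and Psme2) and 42 others. Uteri came from ovariectomized young adult Lewis rats, which lack the ovaries' estrogen. They had received daily DMSO (vehicle), 17β-estradiol (E2) at 4 µg/kg, 3-methylcholanthrene (3-MC) at 15 mg/kg, or E2 and 3-MC together (E2+3-MC), for 3 days. Tissue was taken 24 h after the last dose, with 3 rats in each of the 4 groups and 1 array per rat. All 4 groups share the ovariectomy, and no group had intact ovaries. 3-MC is an aryl hydrocarbon receptor ligand of the polycyclic aromatic class.

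The proteasome is the barrel-shaped protease that degrades proteins tagged with ubiquitin. Its core is built of rings of alpha subunits, which gate the entrance, around rings of beta subunits, of which Psmb5, Psmb6 and Psmb7 carry the constitutive proteolytic activity. In cells exposed to interferon, newly built cores take up Psmb8, Psmb9 and Psmb10 in place of Psmb5, Psmb6 and Psmb7, respectively, and the resulting immunoproteasome cuts peptides for display on class I histocompatibility molecules. Psme1 and Psme2 form PA28, an interferon-inducible cap that opens the core. The regulatory particle, which binds ubiquitin chains and unfolds substrates, is made of Psmc ATPases and Psmd subunits, and the Psmg genes encode assembly chaperones. In the uterus, estradiol drives growth and secretion of the epithelium and brings leukocytes into the tissue.

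Array medians lay between 86.3 and 124 intensity units. Vehicle rat 1 had the widest spread of log2 values (interquartile range 2.70; other arrays 1.87 to 2.35), and this rat bears on most results below. Of the 41 other members that passed the filter on dim genes, 40 had their highest vehicle value in vehicle rat 1, and 25 had their highest value of all 12 rats there. All 5 immune members were also highest in vehicle rat 1 among the vehicle rats. Uterine markers were well above the filter limit of 6.44, with mean log2 levels of 10.97 for the estrogen receptor gene Esr1, 10.81 for the progesterone receptor gene Pgr and 12.17 for smooth muscle myosin, Myh11. Differences below are on the scale log2(intensity + 16), which understates changes of dim genes. The estradiol average is the mean of E2 minus vehicle and E2+3-MC minus 3-MC, and adjusted p-values are from limma over all 10154 genes tested.

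The 3 immune catalytic genes rose about 2-fold with estradiol, whether or not 3-MC was given. Psmb8, the inducible counterpart of the chymotrypsin-like subunit, had intensities of 148, 78.1 and 77.3 in the vehicle rats and 264, 166 and 216 with E2. It stood at 107, 67.1 and 141 with 3-MC and at 287, 232 and 291 with E2+3-MC. All 6 rats given estradiol were above all 6 without it, and the estradiol average was 1.15 ± 0.19 (SE; 2.22-fold, adjusted p = 2.03e-04). E2 exceeded vehicle by 1.01 (adjusted p = 0.013) and E2+3-MC exceeded 3-MC by 1.28 (adjusted p = 0.00457).

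Psmb9, the inducible counterpart of the caspase-like subunit, measured 435, 264 and 256 with vehicle and 759, 518 and 694 with E2. The values were 273, 269 and 316 with 3-MC and 694, 607 and 642 with E2+3-MC. Again the 6 rats with estradiol lay above the 6 without, by an estradiol average of 1.08 ± 0.15 (SE; 2.12-fold, adjusted p = 5e-05). The differences were 1.03 for E2 over vehicle (adjusted p = 0.00301) and 1.14 for E2+3-MC over 3-MC (adjusted p = 0.00256).

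Psmb10, the inducible counterpart of the trypsin-like subunit, measured 349, 187 and 154 with vehicle and 544, 391 and 519 with E2. With 3-MC it was 212, 193 and 220, and with E2+3-MC it was 507, 339 and 479. Each estradiol group lay above its own control group without overlap, but vehicle rat 1 (349) passed E2+3-MC rat 2 (339). The estradiol average was 1.05 ± 0.18 (SE; 2.07-fold, adjusted p = 3.41e-04), from 1.09 over vehicle (adjusted p = 0.00647) and 1.01 over 3-MC (adjusted p = 0.018).

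**Figure D1:**
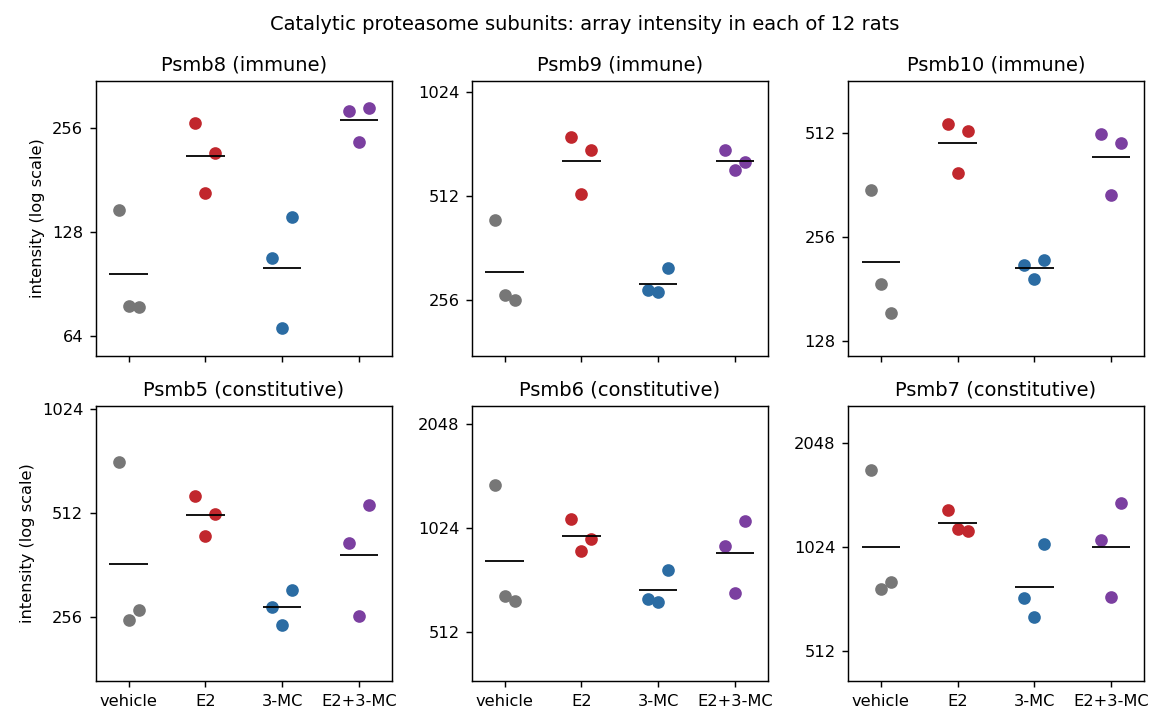
Array intensity (log scale) of the 3 immune catalytic genes (top) and of their constitutive counterparts (bottom) in each rat, by treatment group; each point is 1 rat and each line is the mean of 3 rats on the log2 scale. Psmb8 and Psmb9 were higher in the 6 rats with estradiol than in the 6 without, while vehicle rat 1, the highest vehicle point in every panel, exceeded all other rats for Psmb5, Psmb6 and Psmb7.

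The start regions of the immune genes are shown because interferon acts on this family through a known element, the interferon-stimulated response element (ISRE), whose core was searched on either strand as GAAA, 2 free bases and GAAA again. RefSeq promoters of assembly GRCr8, from 250 bases before to 50 after the start site, were found for 41 of the 47 members. The stretches below run 5′ to 3′ along the gene's own strand, and capitals mark the core or its reverse complement. Psmb10 holds 2 cores, and the others hold 1 each.

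Psmb8, chr20:4657026-4657055, minus strand: cctcctcttggtgctgtggcTTTCGCTTTC

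Psmb10, chr19:50743293-50743385, minus strand: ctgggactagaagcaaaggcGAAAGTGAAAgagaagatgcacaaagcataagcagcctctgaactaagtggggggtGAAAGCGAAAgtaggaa

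Psme2, chr15:33052785-33052824, minus strand: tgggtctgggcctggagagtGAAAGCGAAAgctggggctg

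Tap1, chr20:4668645-4668684, minus strand: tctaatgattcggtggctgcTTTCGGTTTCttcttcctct

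The core occurred in 3 of the 5 immune promoters, in 4 of the 36 other members' promoters (11.1%) and in 3.77% of all 27457 promoters. The 4 others were Psma4, Psmb3, Psmd7 and Psmg4, none of which passed the test in the estradiol average with all 12 rats. Without vehicle rat 1, Psma4, Psmb3 and Psmd7 were among the 30 of 41 other members that passed, where 30.2% of all genes were called higher. Psmb9, Psme1, Psmb5, Psmb6 and Psmb7 have no such core within the window. Tap1, which encodes a subunit of the peptide transporter, is included because it starts 457 bases from Psmb9 and faces the other way, and its core lies 336 bases from the Psmb9 start. A gamma-activated site core (TTCNNNGAA) was found in 1 of 5 immune promoters, that of Psmb8, in 3 of 36 others and in 8.68% of all. The full estrogen response element, GGTCA and TGACC separated by 3 free bases, occurred in no member and in 0.0255% of all promoters. The short xenobiotic response element core (GCGTG), the letters bound by the aryl hydrocarbon receptor, was in 2 of 5 immune promoters, 19 of 36 others and 31.1% of all. These are matches of letters and not measured binding.

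The constitutive counterparts had smaller differences that did not pass the test. Psmb5, the chymotrypsin-like subunit, measured 721, 251 and 269 with vehicle, 574, 441 and 509 with E2, 275, 243 and 307 with 3-MC, and 420, 258 and 541 with E2+3-MC. The groups overlapped through vehicle rat 1, and the estradiol average was 0.47 ± 0.23 (SE; 95% interval -0.02 to 0.95, adjusted p = 0.151). Psmb6, the caspase-like subunit, measured 1360, 649 and 629 with vehicle, 1090, 875 and 948 with E2, 639, 626 and 775 with 3-MC, and 908, 665 and 1070 with E2+3-MC. Its average was 0.29 ± 0.19 (interval -0.11 to 0.68, adjusted p = 0.28), and a second probe set gave 0.39. Psmb7, the trypsin-like subunit, measured 1710, 773 and 810 with vehicle, 1310, 1150 and 1140 with E2, 726, 640 and 1040 with 3-MC, and 1070, 732 and 1370 with E2+3-MC, for an average of 0.30 ± 0.21 (interval -0.13 to 0.73, adjusted p = 0.309). Without vehicle rat 1 all 3 passed in the estradiol average, Psmb5 at 0.70, Psmb6 at 0.47 and Psmb7 at 0.48, while Psmb8, Psmb9 and Psmb10 then stood at 1.28, 1.20 and 1.21. The contrast of called immune and uncalled constitutive subunits thus rested on that rat, whereas the order of the sizes did not.

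Differences between genes within 1 array are less open to the scale of that array, so each immune gene was set against its counterpart rat by rat, with the vehicle mean put at 0. A difference in spread between arrays need not cancel in this way. Vehicle rat 1 stood at -0.41 for Psmb8 minus Psmb5 (other vehicle rats 0.26 and 0.15). It stood at -0.25 for Psmb9 minus Psmb6 (0.12 and 0.12) and at -0.08 for Psmb10 minus Psmb7 (0.20 and -0.12). For the first 2 pairs that rat thus lowered the vehicle mean put at 0. The pair comparisons were given no test. Psmb9 minus Psmb6 ran from 0.63 to 1.24 in the 6 rats with estradiol and from -0.25 to 0.20 in the 6 without. Psmb10 minus Psmb7 ran from 0.64 to 1.11 with estradiol and from -0.12 to 0.51 without. For both pairs the 6 rats with estradiol lay above the others. Psmb8 minus Psmb5 overlapped: E2 rats stood at 0.69, 0.43 and 0.58, within the reach of the 3-MC rats at 0.52, 0.12 and 0.72, while E2+3-MC rats stood at 1.23, 1.62 and 0.90.

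The mean of the 5 immune members minus that of the 41 others also separated the rats with estradiol from those without. Relative to the vehicle mean it was -0.02, -0.05 and 0.07 with vehicle, 0.54, 0.43 and 0.58 with E2, -0.02, 0.01 and 0.11 with 3-MC, and 0.65, 0.69 and 0.39 with E2+3-MC. Vehicle rat 1 did not stand apart on this measure. The group SDs were 0.06, 0.08, 0.07 and 0.16, against changes of 0.52 for E2 over vehicle and 0.54 for E2+3-MC over 3-MC. The 5 immune members did not share 1 size of change. In the estradiol average Psmb8, Psmb9 and Psmb10 stood at 1.05 to 1.15 and Psme2 at 0.68. Psme1, at 0.29, lay near the median of the other members, 0.32.

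**Figure D2:**
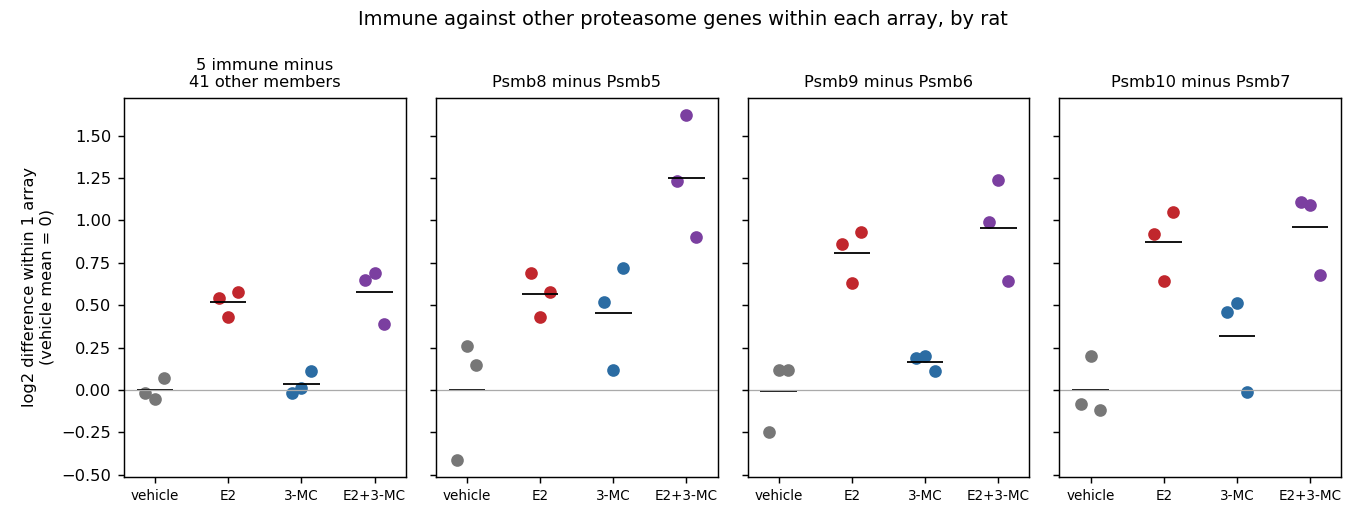
Log2 difference within 1 array between the mean of the 5 immune and the 41 other members, and between each immune catalytic gene and its constitutive counterpart, with the vehicle mean at 0; points are rats and lines are group means. The 6 rats with estradiol lie above the 6 without in all panels except Psmb8 minus Psmb5, where E2 and 3-MC rats overlap.

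Of the genes of the PA28 cap, Psme2 passed the test and Psme1 did not, and the difference between them was not tested. Psme2, its beta subunit, measured 1400, 663 and 728 with vehicle, 1520, 1140 and 1410 with E2, 780, 662 and 951 with 3-MC, and 1370, 1150 and 1490 with E2+3-MC. Vehicle rat 1 lay among the rats given estradiol. The estradiol average was 0.68 ± 0.18 (SE; 1.60-fold, adjusted p = 0.0098), but neither comparison passed alone, with 0.61 over vehicle (adjusted p = 0.103) and 0.74 over 3-MC (adjusted p = 0.0881). A second Psme2 probe set gave 0.67.

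Psme1, the alpha subunit of the same cap, measured 1450, 809 and 892 with vehicle, 1320, 1060 and 1110 with E2, 763, 856 and 932 with 3-MC, and 1150, 1080 and 1120 with E2+3-MC. Apart from vehicle rat 1, the rats with estradiol lay above those without. The average of 0.29 ± 0.15 did not pass (interval -0.03 to 0.61, adjusted p = 0.175), and a second probe set gave 0.23. Without vehicle rat 1 Psme1 passed at 0.41 (adjusted p = 0.00457). Of the other activators, Psme4, which encodes the cap PA200, rose by 0.51 ± 0.16 (adjusted p = 0.0287). Psme3, the nuclear relative of PA28, had a difference of 0.06 ± 0.17 (interval -0.31 to 0.42).

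In the alpha ring 5 of 7 genes rose in the estradiol average, with a median of 0.68, where 15.0% of all genes rose. The count was 6 without vehicle rat 1 (30.2% of all genes) and 5, with 1 lower, after quantile normalization (23.2% of all genes higher). Psma3l, a close relative of Psma3, measured 736, 531 and 553 with vehicle, 1190, 1040 and 1110 with E2, 594, 478 and 664 with 3-MC, and 1010, 838 and 1290 with E2+3-MC. Its 6 rats with estradiol lay above the 6 without. The average was 0.85 ± 0.15 (SE; 1.80-fold, adjusted p = 3.6e-04), and it was the only other member called in both single comparisons, at 0.87 over vehicle (adjusted p = 0.00726) and 0.83 over 3-MC (adjusted p = 0.0176). Because the 2 genes are near copies, this signal may hold Psma3 RNA: a probe set assigned to both had mean intensities of 1000 with vehicle and 1480 with E2, with an estradiol average of 0.57.

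Psma5 measured 1010, 793 and 881 with vehicle, 1680, 1340 and 1430 with E2, 897, 788 and 1020 with 3-MC, and 1440, 1110 and 1720 with E2+3-MC. It too had no overlap between the 6 and the 6, with an average of 0.68 ± 0.14 (adjusted p = 0.0019). Psma6 rose by 0.73 ± 0.17 (adjusted p = 0.00455), with 0.62 from a second probe set, and Psma2 rose by 0.69 ± 0.16 (adjusted p = 0.00472). Psma1 rose by 0.52 ± 0.16 (adjusted p = 0.0222). Psma4 had a difference of 0.38, and Psma7, at 0.13 ± 0.16, had the smallest of the ring. These genes encode structural ring subunits with no proteolytic site. After quantile normalization the sign of Psma7 turned and it passed as lower, at -0.19 (adjusted p = 0.0362), the 1 member called lower under that setting.

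The 7 tested constitutive beta genes all had positive averages, from 0.25 for Psmb3 to 0.49 for Psmb1, with a median of 0.33 and 0 calls by limma (1 at an unadjusted p under 0.05). Without vehicle rat 1 all 7 passed, with a median of 0.52, where 30.2% of all genes rose. After quantile normalization 2 passed, with a median of 0.06, where 23.2% of all genes rose. Psmb11, the thymus-specific beta subunit, was the only member under the filter limit, with a mean log2 level of 5.69, and was not tested.

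In the regulatory particle, 0 of 6 ATPase genes passed by limma (1 at an unadjusted p under 0.05), with a median of 0.32 and a range from 0.10 for Psmc2 to 0.38 for Psmc4. Of 11 non-ATPase genes 2 rose (18.2%, against 15.0% of all genes), with 6 after quantile normalization (23.2% of all genes) and 5 after median centring (22.0%). Psmd8, a lid subunit, measured 595, 256 and 157 with vehicle, 499, 405 and 524 with E2, 238, 221 and 220 with 3-MC, and 429, 363 and 506 with E2+3-MC. Its average was 0.78 ± 0.22 (adjusted p = 0.0165), but a second, dimmer probe set gave 0.31. Psmd14, the deubiquitinase of the lid, measured 444, 265 and 232 with vehicle, 631, 415 and 528 with E2, 291, 254 and 321 with 3-MC, and 524, 293 and 623 with E2+3-MC, and rose by 0.70 ± 0.19 (adjusted p = 0.014). Psmd1, the large scaffold subunit of the base, had the smallest difference of this group at 0.15. Without vehicle rat 1, 5 of the 6 ATPases and 10 of the 11 non-ATPases passed, where 30.2% of all genes rose.

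The 6 assembly chaperones had a median near 0, at 0.05, and 0 passed by limma (0 at an unadjusted p under 0.05). They ran from -0.18 ± 0.15 for Psmd10 (interval -0.50 to 0.14) to 0.26 for Psmd9, both chaperones of the base, with Psmg1, a chaperone of the alpha ring, at -0.03. Psmc3ip and Psme3ip1 entered by their symbols only and encode no proteasome subunits. Psmc3ip, a meiotic recombination factor, had the lowest value of all members, -0.19 ± 0.16, and Psme3ip1 had 0.00 ± 0.18.

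**Figure D3:**
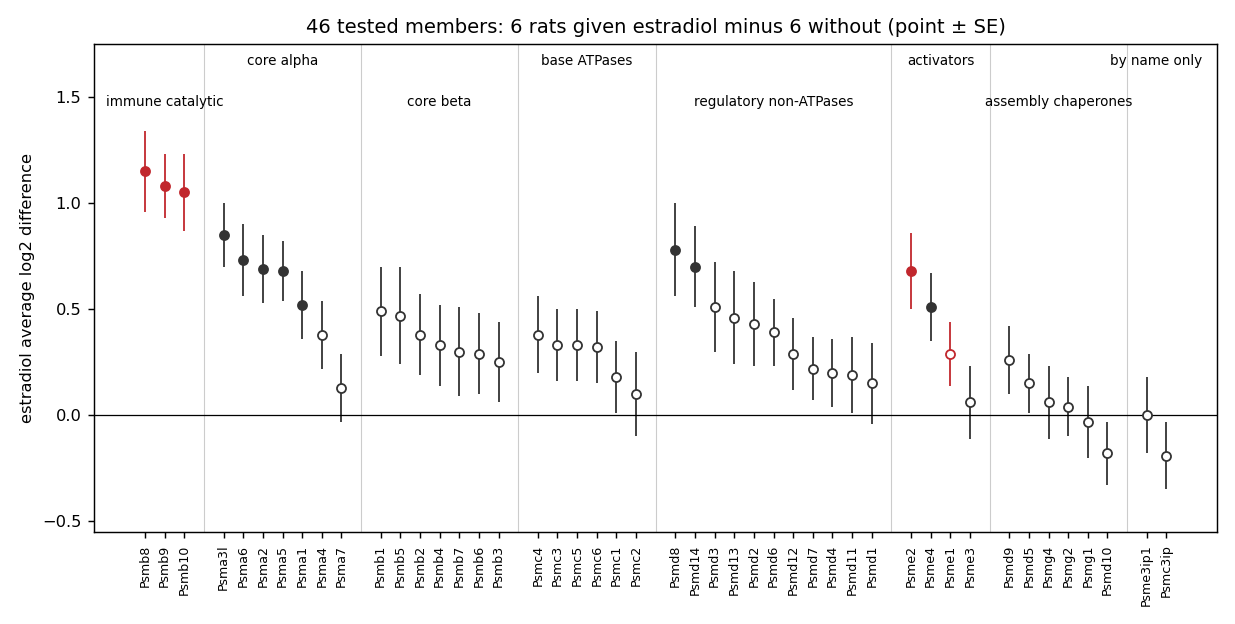
Estradiol average log2 difference (6 rats with estradiol minus 6 without, point ± SE) of the 46 tested members, grouped by role; red marks the immune set and filled points passed at an adjusted p under 0.05. The 3 immune catalytic genes are the highest points at 1.05 to 1.15, 5 of 7 alpha genes are filled, and no constitutive beta, ATPase or chaperone gene is.

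Counted over the family, 12 of 46 tested members rose in the estradiol average and none fell: 4 of the 5 immune members and 8 of the 41 others (19.5%). Over all genes, 15.0% were called higher. On the deposited scale with all 12 rats the share of the other members was near that of all genes. After median centring 15 of the 41 rose (22.0% of all genes), after quantile normalization 18 (23.2%) and without vehicle rat 1 30 (30.2%). The median of the other members was 0.32, against 1.05 in the immune set and -0.02 over all genes, and 37 of the 41 were above 0, where 47.4% of all genes were. For 4 members, Psmb8, Psmb9, Psma3l and Psma5, the 6 rats with estradiol did not overlap the 6 without (8.7% of 46), against 11.5% of all genes in either direction.

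E2 over vehicle and E2+3-MC over 3-MC use different rats. In E2 over vehicle 7 of 46 members rose, namely Psmb8, Psmb9, Psmb10, Psma2, Psma3l, Psma5 and Psma6, and 8.70% of all genes were called higher. Of these, Psma2 passed in 8 of 20 alternative settings (adjusted p up to 0.149), Psma6 in 15 and Psma5 in 16. The same 7 were the members without overlap between the 3 rats and the 3 (15.2%), where 27.2% of all genes had none. In E2+3-MC over 3-MC 4 rose, namely Psmb8, Psmb9, Psmb10 and Psma3l, with 6.82% of all genes called higher. There 18 members had no overlap (39.1%), all of them higher, against 37.3% of all genes. Differences above 0 were seen in 40 members in the first comparison (40.0% of all genes) and in 42 in the second (60.2%). The medians of the other members were 0.28 and 0.37, and those of the immune set were 1.01 in both.

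**Figure D4:**
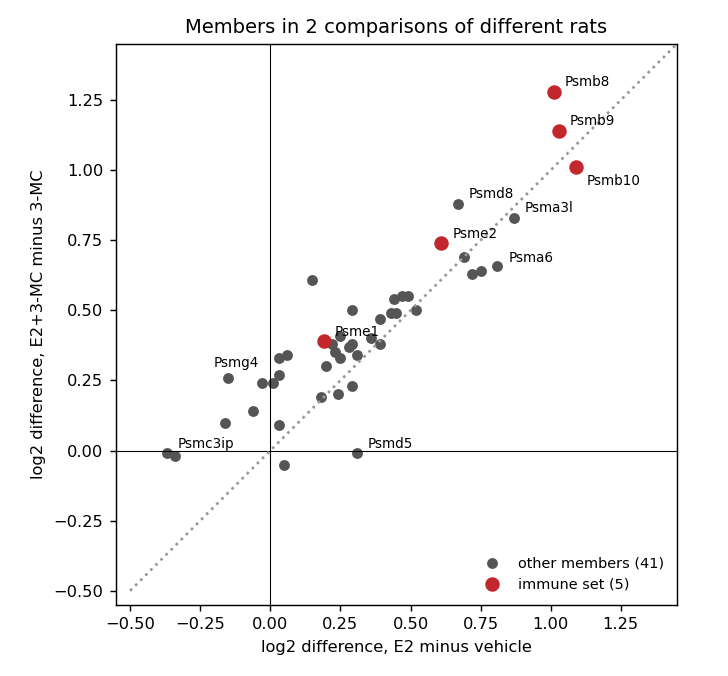
Log2 difference of each tested member for E2 minus vehicle (horizontal) and E2+3-MC minus 3-MC (vertical), which share no rats; red points are the 5 immune members, grey points the 41 others, and the dotted line marks equal differences. Psmb8, Psmb9 and Psmb10 lie at 1.01 or above on both axes, and most other members lie above 0 on both.

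These counts depended on vehicle rat 1. Without it 35 of 46 members passed as higher in the estradiol average, 5 immune and 30 others, where 30.2% of all genes did. In E2 over vehicle 30 members passed (23.8% of all genes higher), and in E2+3-MC over 3-MC, which does not use that rat except in the shared spread, 16 passed (17.1%). After quantile normalization 22 members passed as higher and 1 as lower in the estradiol average (23.2% of all genes higher), the median of the other members went from 0.32 to 0.14 with 33 of 41 above 0, and that of the immune set went from 1.05 to 0.99.

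With 3-MC alone no member passed by limma, with 0 of 46 called and 0 at an unadjusted p under 0.05, and 0% of all genes were called. The differences from vehicle had Psmb8 at 0.05 (95% interval -0.50 to 0.61), Psmb9 at -0.11 (-0.57 to 0.35) and Psmb10 at -0.05 (-0.59 to 0.48), so that differences as large as those with estradiol lay outside the intervals. Of the 46 members 37 were below 0 (60.9% of all genes were), but without vehicle rat 1 39 were above 0, so no direction is given for 3-MC. Adding 3-MC to E2 also called 0 members (0 at an unadjusted p under 0.05) and 0% of all genes. There the difference was 0.32 for Psmb8 (-0.24 to 0.88), -0.01 for Psmb9 (-0.46 to 0.45) and -0.14 for Psmb10 (-0.67 to 0.40). The interaction, the change in the estradiol difference with 3-MC, called 0 members (0 unadjusted) and 0% of all genes, with 0.27 for Psmb8, 0.10 for Psmb9 and -0.08 for Psmb10. E2+3-MC over vehicle, which shares its rats with the comparisons above, called Psmb8 (1.33), Psmb9 (1.03), Psmb10 (0.96) and Psma3l (0.76), against 6.06% of all genes higher.

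Among genes that work with the proteasome, 2 of 14 partners rose in the estradiol average (15.0% of all genes did): Pomp, the maturation protein of the core, by 0.67 ± 0.19 (adjusted p = 0.0161), and Sem1, the smallest lid subunit, by 0.64 ± 0.16 (adjusted p = 0.00625). Of 15 genes of ubiquitin transfer and of the p97 unfoldase, Vcp (p97) rose by 0.69, the conjugating enzyme gene Ube2n by 0.66 and Skp1, a ligase subunit, by 0.51. Without vehicle rat 1, 6 partners and 7 of the ubiquitin and p97 genes rose (30.2% of all genes). After quantile normalization 6 partners rose and 2 fell, and 2 of the ubiquitin and p97 genes rose and 4 fell. Under that setting 23.2% of all genes rose and 2526 of 10154 fell. Of 11 transcription factors and regulators of proteasome genes none rose and 1 fell, the CCAAT-binding subunit gene Nfyc, by 0.46 ± 0.14 (adjusted p = 0.0202). Nfe2l1, the factor that raises proteasome genes when the proteasome is inhibited, had 0.11 ± 0.19 (adjusted p = 0.694). The CCAAT box itself was in 2 of 5 immune and 18 of 36 other promoters, against 37.7% of all. The antioxidant response element core (TGACNNNGC), which Nfe2l1 and Nfe2l2 recognise, was in 0 of 5 and 7 of 36, against 12.2%.

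In the class I pathway, which the immunoproteasome feeds, 10 of 14 genes rose in the estradiol average, 4 did not pass and none fell (median 0.57), where 15.0% of all genes rose. In the single comparisons 2 of the 14 rose in E2 over vehicle (8.70% of all genes) and 3 in E2+3-MC over 3-MC (6.82%). RT1-S3, a class I heavy chain gene, rose by 0.91 ± 0.22, the peptide-loading chaperone genes Calr by 0.87 ± 0.23 and Pdia3 by 0.86 ± 0.15, and the loading-complex gene Tapbp by 0.73 ± 0.17. Tap1, the neighbour of Psmb9, rose by 0.57 ± 0.15 (adjusted p = 0.0102), while Tap2, which encodes the other transporter subunit, had 0.18 ± 0.14 (adjusted p = 0.376). Tap1 and Tap2 were singled out here as the transporter genes after their values were seen.

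Interferon target genes rose as a rule, several of them by more than any proteasome gene. Of 20 tested 18 rose, with a median of 1.15, led by the antiviral genes Mx1 at 2.60 ± 0.28, Isg15 at 2.25 ± 0.20 and Ifit3 at 2.08 ± 0.21, and by Uba7, the activating enzyme for the Isg15 protein, at 1.56 ± 0.15. Of 14 regulators 6 rose, among them Irf7 at 1.82, the interferon gamma receptor gene Ifngr1 at 1.16, Stat2 at 1.15 and Irf1, a known activator of the immunoproteasome genes, at 0.97 ± 0.16 (adjusted p = 2e-04). Ifng, the gene of interferon gamma, was under the filter limit at 5.94 and was not tested. The counts for class I, targets and regulators were 12, 18 and 8 without vehicle rat 1. Over all genes 30.2% then rose, against 15.0% with all 12 rats. After quantile normalization the 3 counts were 13, 18 and 9, and 2 regulators, Ifnar1 and Jak1, were called lower. Under that setting 23.2% of all genes rose and 2526 of 10154 fell.

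Leukocyte, macrophage and class II markers moved in the same direction, where 15.0% of all genes were called higher. Of 10 general leukocyte genes 8 rose (median 0.88), among them Ptprc, the gene of CD45, by 1.26, and of 15 macrophage genes 11 rose (median 1.24), among them Cd68 by 1.58, Fcer1g by 1.56 and Cd86 by 1.56. Of 10 class II genes 7 rose, led by Ctss at 1.47 and RT1-Da at 1.24. By contrast 0 of 7 tested lymphocyte genes passed by limma (0 at an unadjusted p under 0.05; median -0.04), and the T cell genes Cd3d and Cd8a were under the filter limit at 5.44 and 6.18. The summed intensity of the macrophage list was 10889, 3265 and 3537 in the vehicle rats, 8803 to 12919 with E2, 3508 to 6702 with 3-MC and 9763 to 11938 with E2+3-MC, so that vehicle rat 1 lay with the rats given estradiol. Its mean level, 8.99 in vehicle rat 1 against 7.53 and 7.61, went to 8.60, 7.59 and 7.83 after quantile normalization, below the rats given estradiol (8.88 to 9.16). The mean of Psmb8, Psmb9 and Psmb10 in vehicle rat 1 was then 7.90, against 8.60 to 8.86 in the rats given estradiol. The leukocyte list summed to 1526 to 4085 with vehicle, 3039 to 4722 with E2, 1558 to 2454 with 3-MC and 3434 to 3990 with E2+3-MC.

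Of 13 epithelial genes 9 rose and 1 fell (median 1.05), among them Elf3, higher by 3.40, and Krt8, by 2.60. The list summed to 4609 to 9722 with vehicle, 16421 to 19646 with E2, 4243 to 5651 with 3-MC and 9036 to 17396 with E2+3-MC. By contrast 8 of 9 endothelial genes fell, among them Cdh5 by 0.84, with 10.6% of all genes called lower. That count was 7 in E2 over vehicle and 0 in E2+3-MC over 3-MC by limma (6 at an unadjusted p under 0.05; median -0.50). Over all genes 9.44% and 1.39% were called lower in these comparisons. After quantile normalization the counts were 8 and 7, with 1973 and 1266 of all 10154 genes called lower. Of 7 granulocyte genes 4 rose, led by S100a9 at 2.45, and 3 were below 0, with Cpa3 called lower. In E2 over vehicle Mpo and Cpa3 were both called lower. Of 10 stromal genes 3 rose and 2 fell, with 7 below 0, and 4 of 10 myometrial genes rose. Over all genes 15.0% were called higher and 10.6% lower in the estradiol average. In whole tissue, a change in the number of cells of a type and a change in RNA per cell cannot be told apart. The part of these cell types in the proteasome values was not tested.

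**Figure D5:**
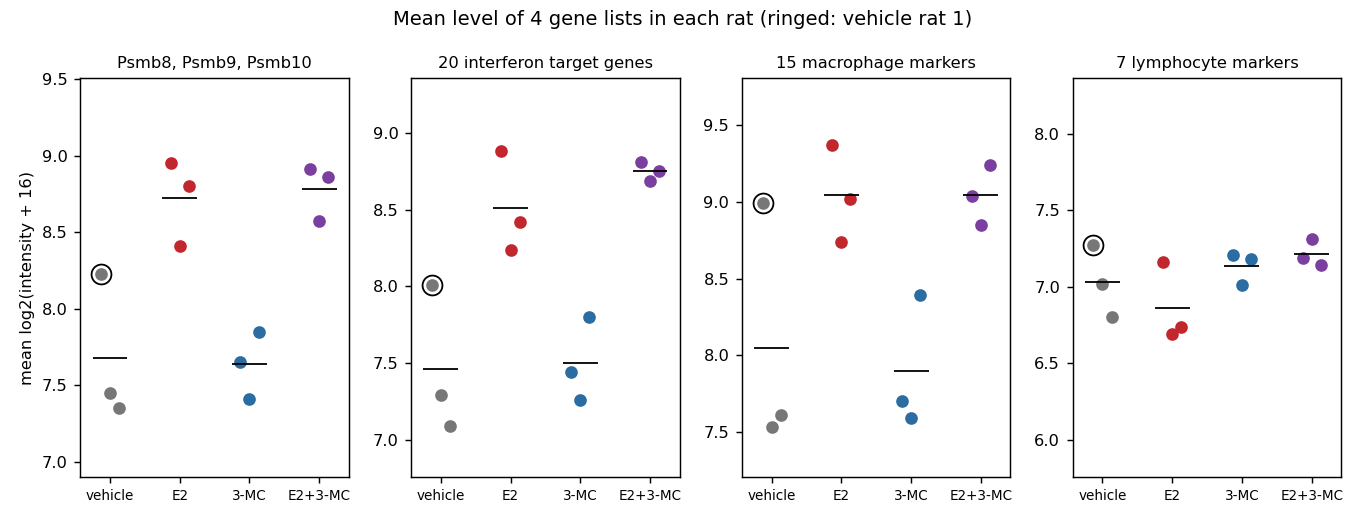
Mean log2(intensity + 16) per rat of Psmb8, Psmb9 and Psmb10, of 20 interferon target genes, of 15 macrophage markers and of 7 lymphocyte markers; points are rats, lines are group means and the ring marks vehicle rat 1. The first 3 panels are higher in the estradiol groups, with vehicle rat 1 between the groups for the proteasome genes and among the estradiol rats for the macrophage markers, and for the lymphocyte markers the groups overlap.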

How the data were processed

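Total RNA of 12 uteri, 1 array each, was made into biotinylated cRNA for Affymetrix arrays (labels' protocols). The authors deposited 1 linear intensity per probe set, and the submitters' processing notes name Affymetrix Expression Console and PLIER without versions. How arrays were normalized to each other, and the build and annotation used, is not given in the sources used here. Of 29214 probe sets, 15310 name 1 gene in the platform annotation. The probe set with the highest mean was kept per gene. After log2(intensity + 16) and removal of the dimmest 30% of genes, limma 3.58.1 (lmFit and eBayes, 4 group means, 8 residual and 8.92 prior degrees of freedom) was fitted to 10154 genes in R 4.3.3, two-sided, with Benjamini-Hochberg adjustment and calls under 0.05. The number of arrays limits precision: the median SE was 0.22. The fit was tested on simulated data with independent noise and no difference in scale or spread between arrays. That test therefore does not bear on the effect of vehicle rat 1. Members and gene lists were chosen with earlier results of these data known. Named genes are the immune set and its counterparts, called members, the extremes of each role and up to 4 called genes per list. Pair and set differences were given no test. Alternatives were quantile normalization, median centring, offset 1, no filter, trended variance, the mean of probe sets, only the compared groups, a replicate block and leaving out each rat. Psma3, Psma8, Psmf1, Psmg3 and the further RefSeq genes of these prefixes had no probe set of their own and are not analysed here.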

Additional observations from a re-analysis of the deposited data

Results flagged for a closer look

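With vehicle rat 1 included, Psmg4, an assembly chaperone gene, went in opposite directions in the comparisons that share no rats. The differences were -0.15 for E2 over vehicle and 0.26 for E2+3-MC over 3-MC. The change between them was 0.40 on the log2 scale and did not pass limma's interaction test (adjusted p = 0.977). Its vehicle values were 584, 265 and 331, the highest from vehicle rat 1. The E2 values were 350, 298 and 360, and their mean of 336 lay above the other vehicle rats. The negative sign for E2 over vehicle thus rested on vehicle rat 1, and without that rat the directions were not opposite. Of the 6 assembly chaperones, 2 were above 0 in E2 over vehicle, against 5 without vehicle rat 1.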

How the results depend on the processing

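Counts of called members moved with the array scale, with single rats and with the samples that share the estimate of spread. In E2 over vehicle 7 members were called, against 17 after quantile normalization, 12 after median centring and 4 with only the compared groups, where 8.70%, 19.0%, 15.1% and 5.61% of all genes were called higher. In E2+3-MC over 3-MC 4 were called, against 8 after quantile normalization, 16 with only the compared groups and 7 with a replicate block (6.82%, 13.6%, 17.5% and 9.13% of all genes higher). In the estradiol average 12 were called, against 23 after quantile normalization and 19 after median centring (15.0%, 23.2% and 22.0%). In E2+3-MC over vehicle 4 were called, against 11 after quantile normalization and 1 with only the compared groups (6.06%, 12.8% and 2.45%). Leaving out 1 rat gave 3 to 30, 2 to 16, 10 to 35 and 2 to 24 calls in these 4 comparisons. The most came without vehicle rat 1 each time, where 23.8%, 17.1%, 30.2% and 24.5% of all genes were called higher. Without vehicle rat 2 the calls were 3, 4, 10 and 2, with 5.97%, 6.81%, 12% and 4.22% of all genes higher. Without 3-MC rat 1, E2+3-MC over 3-MC had 2 calls (4.31%). The 3-MC comparisons and the interaction kept 0 calls of members under every alternative run. The rat numbers did not pair the samples: 18 same-number pairs correlated from -0.27 to 0.24 and 2 of 12 samples correlated best with their own number. The replicate block gave 9, 7, 15 and 6 calls, where 11%, 9.13%, 17.7% and 7.97% of all genes were called higher. Immune minus other members stayed between 0.49 and 0.67 in the estradiol comparisons under the 16 alternatives run for it. In the estradiol average Psmb8, Psmb9, Psmb10, Psme2, Psma2, Psma3l, Psma5, Psma6, Psmd8 and Psmd14 passed in all 19 alternatives, Psma1 in 14, Psme4 in 12, Psmb5 in 2, and Psmb6, Psmb7 and Psme1 in 1. Psmb8 lost its call in E2 over vehicle in 3 of 20 alternatives (adjusted p up to 0.0591) and Psmb10 and Psma3l in E2+3-MC over 3-MC in 4 each (up to 0.102 and 0.139). Over all genes, median centring moved the median of E2 over vehicle from -0.11 to 0.05 and the share of calls that were higher from 47.9% to 65.7%, and that of E2+3-MC over E2 from 0.15 to -0.10. In the estradiol average the share higher went from 58.5% to 48.3% after quantile normalization.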
